A study of Homo sapiens with 15 samples.

Results

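Metallothionein genes, the metal-responsive transcription factor gene MTF1 and the zinc exporter gene SLC30A1 were followed in a human oral squamous carcinoma line that had been stably transfected with cytoglobin cDNA, and in its control line. The members were 10 genes (MT1A, MT1E, MT1F, MT1G, MT1H, MT1M, MT1X, MT2A, MTF1 and SLC30A1), chosen by name. They were read by every non-control array probe whose RefSeq annotation was a transcript of these genes, which gave 12 probes of the 42405 distinct probes on the array, where 19483 genes could be named. MT1H and MT1X had 2 probes each and the other members 1.

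Both groups were PE/CA-PJ41 cells, an established line from an oral squamous cell carcinoma, grown in RPMI1640 with foetal bovine serum, glutamine and antibiotics, and kept for 24 hours in supplemented medium before total RNA was extracted. CYGB+ cells carried the pCMV6-Neo plasmid with human cytoglobin cDNA and came from stable selection in G418 with cloning rings. The line on the arrays was the clone LST421, and clone and transgene cannot be told apart. NCE cells (non-cytoglobin expressing) carried an empty transfection vector per the labels, whereas legends of the study call them the untransfected parent line, so whether the control carried a vector is not settled. RNA was taken on 3 occasions, giving 3 biological replicates in each group, with 3 arrays for each NCE replicate and 2 for each CYGB+ replicate, 15 arrays in all. The labels do not say that the occasions were separate cultures, so the p-values measure the spread between these RNA samples only.

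Metallothioneins are small cysteine-rich proteins that bind zinc and copper and also bind cadmium and other toxic metals. MTF1 senses free zinc and, when zinc is bound, activates genes that carry metal response elements, among them the metallothionein genes and SLC30A1. SLC30A1 encodes ZnT1, the plasma membrane transporter that moves zinc out of the cell. Epithelial cells use these genes to buffer zinc, and metallothioneins are also known to respond to glucocorticoids and to oxidants.

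All 8 metallothionein members lie in 1 cluster on chromosome 16 (GRCh38.p14), from MT2A, whose annotated start is 56608584, to MT1X, whose annotated end is 56684196, with MT1E, MT1M, MT1A, MT1F, MT1G and MT1H between them. MTF1 (1, 37809574 to 37859592) and SLC30A1 (1, 211571568 to 211579161) lie apart from it on chromosome 1. The RefSeq promoter windows of this build were searched for the metal response element core, spelled TGCACNC or TGCGCNC, on both strands. A window for the 250 bases before the annotated start was found for 5 of the 10 members. The core occurred 8 times before MT1H, 7 times before MT2A, 4 times before MT1X and 1 time before SLC30A1, and it was not in the MTF1 window. Of 35116 such windows, 24.8% held at least 1 core, 6.48% held 2 or more and 0.12% held 5 or more, so that a core by itself was common while the number before MT1H and MT2A was not. The sequences of the metallothionein windows and the exporter window are printed because they carry this contrast, 5′ to 3′ on the strand of the gene, with each core in capitals on whichever strand it was found. The MT2A window is chr16:56608334-56608583, the MT1X window chr16:56682220-56682469 and the MT1H window chr16:56669564-56669813, all on the plus strand, and the SLC30A1 window is chr1:211579162-211579411 on the minus strand. A match of these letters is a description of the window and was not tested as a binding site.
MT2A: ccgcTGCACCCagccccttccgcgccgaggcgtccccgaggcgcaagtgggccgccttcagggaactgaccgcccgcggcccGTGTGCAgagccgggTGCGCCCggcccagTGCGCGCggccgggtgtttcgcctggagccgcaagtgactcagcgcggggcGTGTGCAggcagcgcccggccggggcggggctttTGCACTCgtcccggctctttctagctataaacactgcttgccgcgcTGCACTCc
MT1X: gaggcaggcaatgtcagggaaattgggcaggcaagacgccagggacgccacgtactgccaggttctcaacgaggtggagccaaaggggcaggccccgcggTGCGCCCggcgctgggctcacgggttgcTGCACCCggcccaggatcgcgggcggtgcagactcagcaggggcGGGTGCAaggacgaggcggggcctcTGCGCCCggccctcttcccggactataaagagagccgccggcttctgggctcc
MT1H: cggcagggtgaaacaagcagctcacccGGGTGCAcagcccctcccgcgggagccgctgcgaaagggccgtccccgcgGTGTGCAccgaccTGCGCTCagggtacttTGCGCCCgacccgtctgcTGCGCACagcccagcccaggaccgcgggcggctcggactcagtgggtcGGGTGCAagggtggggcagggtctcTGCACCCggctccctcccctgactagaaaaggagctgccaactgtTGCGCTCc
SLC30A1: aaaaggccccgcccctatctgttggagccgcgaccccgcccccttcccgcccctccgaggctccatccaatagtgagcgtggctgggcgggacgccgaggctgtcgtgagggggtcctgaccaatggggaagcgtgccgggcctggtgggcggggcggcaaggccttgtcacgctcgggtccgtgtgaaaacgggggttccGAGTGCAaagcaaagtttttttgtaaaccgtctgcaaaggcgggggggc

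The arrays and their labels were checked before the members were compared. Between 48.9% and 57.3% of probes were well above background on an array, and the mean correlation of an array with the others ran from 0.976 to 0.986, apart from array 1 of CYGB+ replicate 1, which stood at 0.955. The CYGB probe itself did not separate the groups: it read 11.87, 12.16 and 11.94 in the NCE replicates and 11.36, 12.42 and 11.96 in the CYGB+ replicates on the log2 intensity scale, a difference of -0.07 (95% confidence interval -0.66 to 0.51, limma adjusted p = 0.876). The probe was well above background on all 9 NCE and all 6 CYGB+ arrays, although NCE stands for non-cytoglobin expressing. The reason was not tested. Where this probe lies relative to the transfected cDNA is not given in the sources used here. CYGB+ and NCE therefore mean the samples labelled so. The arrays lay on 2 slides, with 8 NCE arrays on slide 1 and the remaining NCE array (replicate 1) beside all 6 CYGB+ arrays on slide 2, so group and slide were nearly the same split. All 9 squamous epithelial marker probes were well above background on every array. Of the other markers, 2 of 7 fibroblast (COL1A1 and COL1A2), 1 of 7 leukocyte (CD14) and 1 of 6 endothelial (CDH5) probes passed the filter on dim probes. COL1A2 and CD14 were well above background on every array, whereas no PTPRC, CD3E, PECAM1 or VWF probe passed the filter.

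No metallothionein, MTF1 or SLC30A1 probe passed the test between CYGB+ and NCE cells. Of the 12 member probes, 11 passed the filter on dim probes, and 0 of the 11 were called at a limma adjusted p below 0.05, with 0 also at an unadjusted p below 0.05. Of the 21505 probes tested, 11.1% were called (5.39% higher and 5.68% lower in CYGB+), and 28% had an unadjusted p below 0.05. The members kept did not move to one side, since 6 of the 11 probes were higher and 5 lower in CYGB+, with a median log2 difference of 0.21 against -0.006 over all probes tested. The spread of the members inside each group was wide. The median distance between the highest and lowest replicate was 0.96 log2 units in NCE and 0.90 in CYGB+, against 0.219 and 0.324 over all probes tested. In bulk RNA, fewer cells expressing a gene and less RNA per cell cannot be told apart.

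**Figure D1:**
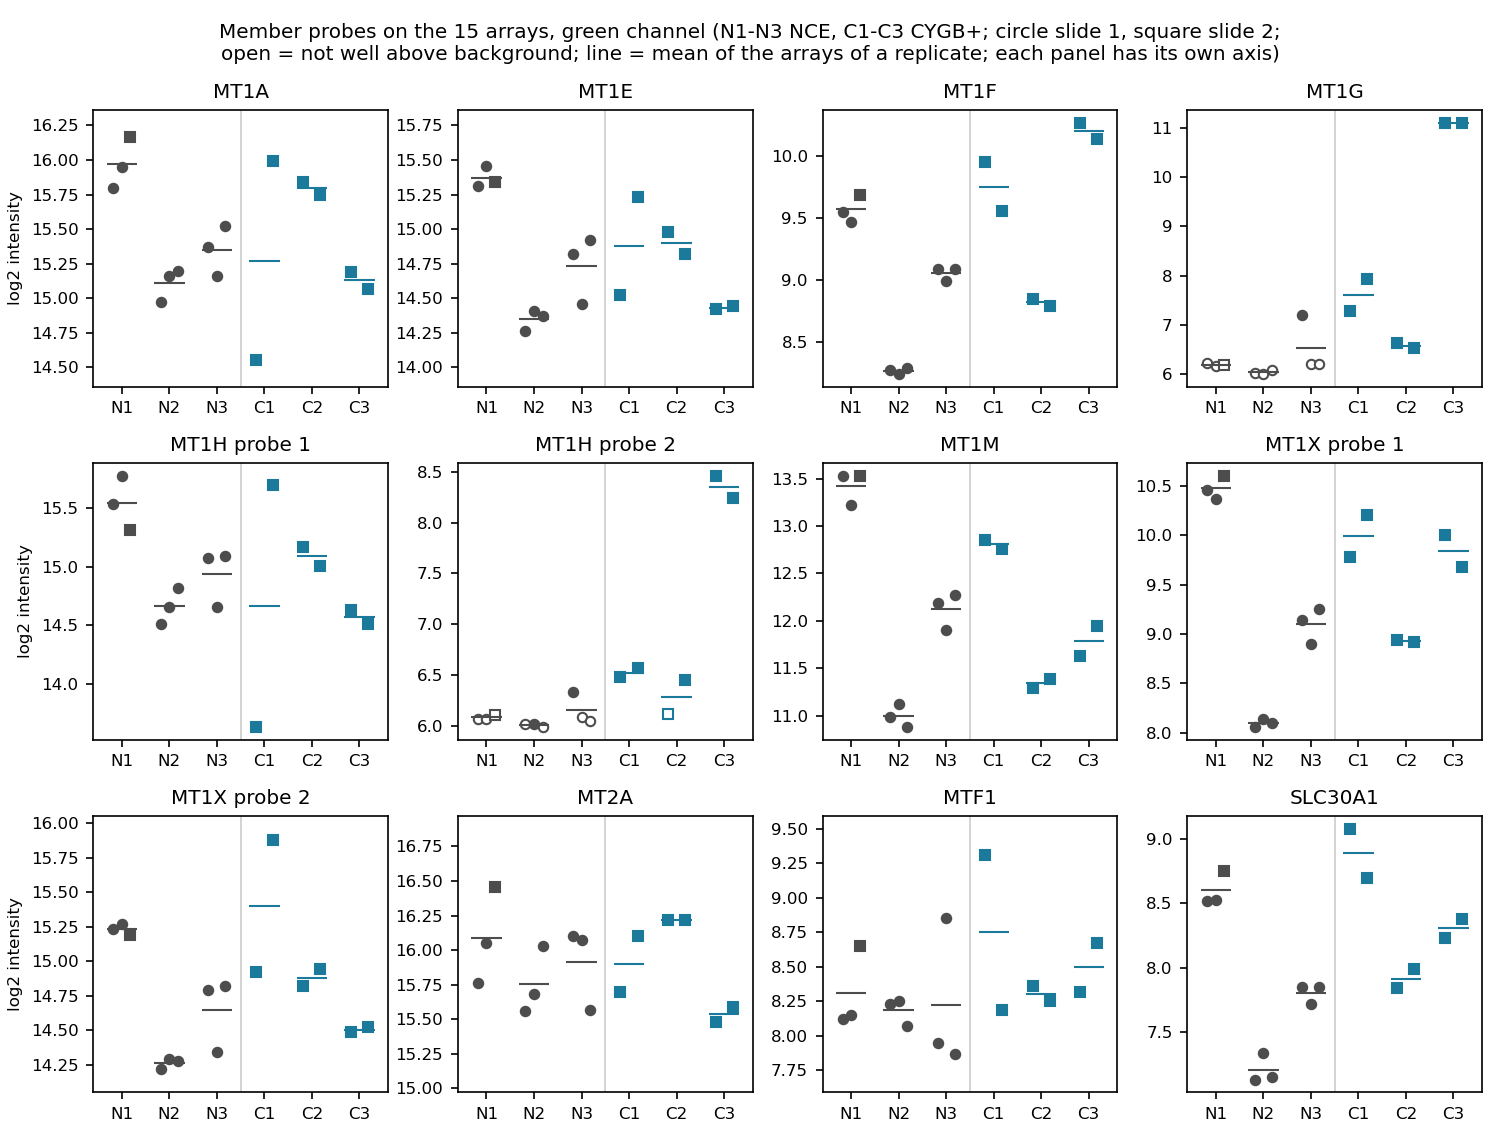
Log2 green-channel intensity (vertical axis, a separate range in each panel) of the 12 member probes on the 15 arrays, for NCE replicates (N1 to N3, grey) and CYGB+ replicates (C1 to C3, blue); circles are slide 1, squares slide 2, open symbols arrays where the probe was not well above background, and lines the mean of a replicate's arrays. MT1G and MT1H probe 2 (A_33_P3368313) are highest in C3, while most other probes are highest in N1 and lowest in N2 among the NCE replicates; MT1H probe 1 is A_33_P3315314, MT1X probe 1 is A_33_P3236868 and MT1X probe 2 is A_33_P3350056.

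MT2A encodes the main metallothionein isoform of most human cells. Its probe read 16.09, 15.76 and 15.92 in the NCE replicates and 15.90, 16.22 and 15.54 in the CYGB+ replicates (log2 intensity). The groups overlapped fully, with both the highest and the lowest replicate in CYGB+. The difference was -0.04 (95% confidence interval -0.46 to 0.39, n = 3 in each group, limma adjusted p = 0.92), a range of 0.725-fold to 1.31-fold. On the slide that held both groups, the NCE replicate 1 array read 0.55 above the other arrays of the same RNA, which is larger than the difference between the groups.

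MT1A and MT1E, inducible isoforms of the same cluster, did not separate the groups either. MT1A read 15.97, 15.11 and 15.35 in NCE and 15.27, 15.79 and 15.13 in CYGB+. MT1E read 15.37, 14.35 and 14.73 in NCE and 14.87, 14.90 and 14.43 in CYGB+. NCE replicate 1 held the highest value of both probes, and the groups overlapped. Both differences were -0.08, with 95% confidence intervals of -0.67 to 0.52 for MT1A and -0.69 to 0.53 for MT1E (limma adjusted p = 0.873 and 0.868). The MT1A value of CYGB+ replicate 1 averaged 14.55 and 15.99, and its lower array was the array that stood apart; without it the MT1A difference was 0.16.

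MT1H was read by a bright and a dim probe that did not move alike. The bright probe, A_33_P3315314, read 15.55, 14.66 and 14.94 in NCE and 14.67, 15.09 and 14.57 in CYGB+, a difference of -0.28 (95% confidence interval -0.84 to 0.28, limma adjusted p = 0.496) that turned to 0.07 without the array that stood apart, where it read 13.63 against 15.70 on the other array of the same RNA. The dim probe, A_33_P3368313, was well above background on 2 of 9 NCE and 5 of 6 CYGB+ arrays and did not pass the filter. It read 6.08, 6.01 and 6.15 in NCE and 6.52, 6.28 and 8.35 in CYGB+, with CYGB+ replicate 3 above all others. Its groups did not overlap, as for 33.7% of the probes that were tested. For a probe at background on most NCE arrays this is a description only. Metallothionein transcripts are near-identical in sequence, so that a probe may also bind the transcript of another member, and the probes' own sequences are not given in the sources used here.

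MT1G was near background in NCE cells and high in 1 CYGB+ replicate. The probe was well above background on 1 of 9 NCE arrays and on 6 of 6 CYGB+ arrays, so it passed the filter through the CYGB+ replicates alone, and the size of its difference depends on the background level of the NCE arrays. It read 6.19, 6.03 and 6.54 in the NCE replicates and 7.61, 6.57 and 11.09 in the CYGB+ replicates. The groups did not overlap, as for 33.7% of all probes tested, which for a probe kept through its high group is a description only. Both arrays of CYGB+ replicate 3 were high, at 11.09 and 11.10, while CYGB+ replicate 2 read 6.63 and 6.52, close to the NCE arrays. The log2 difference was 2.17 (95% confidence interval -0.21 to 4.55, limma adjusted p = 0.215), and it was 0.84 (adjusted p = 0.148) without CYGB+ replicate 3. CYGB+ lay above NCE in 3 of 3 same-numbered pairs, by 1.42, 0.54 and 4.56, which follows from groups that do not overlap. Against the NCE array of the shared slide, which read 6.18, the mean of CYGB+ was 2.25 higher (adjusted p = 0.718 within that slide). From the scanner's processed signal the MT1G difference was 4.46 (adjusted p = 0.0987). With the array repeats as a random block, the difference of 2.17 passed the test (limma adjusted p = 0.0276). That fit used 1 correlation between repeat arrays for all probes, and it called 2352 probes higher and 2442 lower of 21505. For a probe kept through its high group, that call too is a description only.

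MT1F, another isoform of the cluster, shared the high value in CYGB+ replicate 3. It read 9.57, 8.27 and 9.05 in NCE and 9.75, 8.82 and 10.20 in CYGB+. The groups overlapped because NCE replicates 1 and 3 lay above CYGB+ replicate 2. The difference was 0.63 (95% confidence interval -0.35 to 1.61, limma adjusted p = 0.373), and within the shared slide it was -0.10.

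MT1M and MT1X probe A_33_P3236868 varied most between the RNA occasions among the NCE replicates, by 2.43 and 2.37 log2 units. MT1M read 13.43, 11.00 and 12.12 in NCE and 12.80, 11.34 and 11.79 in CYGB+. MT1X probe A_33_P3236868 read 10.47, 8.10 and 9.10 in NCE and 9.99, 8.93 and 9.84 in CYGB+. In both, replicate 1 was the highest and replicate 2 the lowest of its group, in either group. Replicate 1 was 5.39-fold above replicate 2 in NCE and 2.76-fold in CYGB+ for MT1M, and 5.19-fold and 2.09-fold for the MT1X probe. Repeat arrays of the same RNA lay close together by comparison, as MT1X showed with 10.46, 10.36 and 10.60 on the NCE replicate 1 arrays against 8.06, 8.14 and 8.10 on those of NCE replicate 2. Against that spread, the group differences were -0.20 for MT1M (95% confidence interval -1.64 to 1.23, limma adjusted p = 0.863) and 0.36 for MT1X (-0.97 to 1.70, adjusted p = 0.724). The brighter MT1X probe, A_33_P3350056, read 15.23, 14.27 and 14.65 in NCE and 15.40, 14.88 and 14.50 in CYGB+, a difference of 0.21 (-0.47 to 0.90, adjusted p = 0.683), and placed CYGB+ replicate 3 lowest where the other MT1X probe did not.

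MTF1, the zinc sensor, had the closest NCE replicate means of the member probes kept, although the arrays of NCE replicate 3 read 7.95, 8.85 and 7.87. Its probe read 8.31, 8.18 and 8.22 in NCE and 8.75, 8.31 and 8.49 in CYGB+. The groups touched, with the lowest CYGB+ replicate at the level of the highest NCE replicate, and CYGB+ was higher in 3 of 3 same-numbered pairs. The difference of 0.28 (95% confidence interval -0.02 to 0.58) did not pass the test (limma adjusted p = 0.21). The value of CYGB+ replicate 1 averaged 9.31 and 8.19, and its higher array was the array that stood apart. The other array, at 8.19, lay below NCE replicate 1, so the direction of pair 1 rested on the array that stood apart. Without that array the MTF1 difference was 0.09. Within NCE replicate 1, the array on the shared slide read 0.52 above the others, and within that slide the group difference was -0.14.

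SLC30A1, the zinc exporter, read 8.60, 7.21 and 7.81 in the NCE replicates and 8.89, 7.92 and 8.30 in the CYGB+ replicates. The groups overlapped, but both ordered the replicate numbers alike, with replicate 1 highest and replicate 2 lowest. CYGB+ lay above NCE in 3 of 3 same-numbered pairs, by 0.29, 0.71 and 0.50. The sample titles number the replicates within each group and do not say that equal numbers share an occasion. Without regard to the replicate number, the difference was 0.50 log2 units, a 1.41-fold higher level in CYGB+. Its 95% confidence interval was -0.37 to 1.37 and its limma adjusted p 0.429. With the replicate number as a block it had an interval of 0.21 to 0.78 and passed the test (limma adjusted p = 0.0424). It was the only member called in that fit, 1 of 11 probes where 13.8% of all probes were called (6.58% higher and 7.21% lower in CYGB+), and 4 members (MT1F, MT1G, MTF1 and SLC30A1) had an unadjusted p below 0.05, where 31.7% of all probes did. The call did not hold in the block without pair 2 (0.39, adjusted p = 0.191) or pair 3 (0.50, adjusted p = 0.173). Few probes were called in those fits, 146 higher and 168 lower of 21505 without pair 2, and 166 and 186 without pair 3. The lost call thus says little about SLC30A1 itself. The call held without pair 1 (0.60, adjusted p = 0.00678), where MT1F (0.85, adjusted p = 0.00403), MT1G (2.55, adjusted p = 0.0219) and MT1X probe A_33_P3236868 (0.79, adjusted p = 0.00178) passed as well. That was 4 of 11 member probes, among them the MT1G probe kept through its high group, where 23.6% of all probes were called. The slide moved with it: within NCE replicate 1 the array on the shared slide read 8.75 against 8.53 for the others, and CYGB+ replicate 1 was 0.14 above that array. With slide as a block the SLC30A1 difference was -0.14 (limma adjusted p = 0.961), and within the shared slide -0.38 (adjusted p = 0.811).

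**Figure D2:**
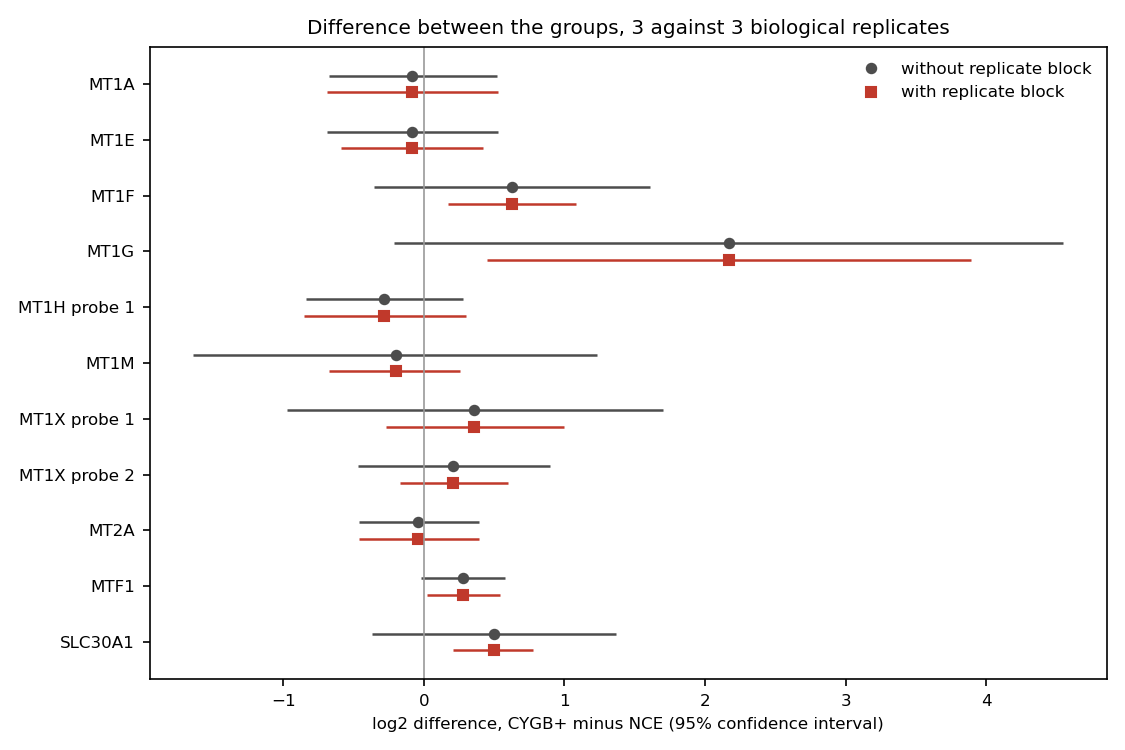
Log2 difference between CYGB+ and NCE (horizontal axis, CYGB+ minus NCE) for the 11 member probes that passed the filter, with 95% confidence intervals from limma on 3 against 3 biological replicates, without (grey circles) and with (red squares) the replicate number as a block. Every interval without the block includes 0, and with the block those of MT1F, MT1G, MTF1 and SLC30A1 do not, of which SLC30A1 passed after adjustment over all probes.

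The order of the replicate numbers was shared by many members. In NCE, all 12 member probes were lowest in replicate 2 and 10 were highest in replicate 1, and 10 showed both, as did 16% of all probes tested. In CYGB+, 7 were lowest in replicate 2 and the other 5 (MT1A, MT1E, MT1H probe A_33_P3315314, MT1X probe A_33_P3350056 and MT2A) in replicate 3. The bright probes thus followed the NCE order less closely than MT1M, MTF1, SLC30A1 and MT1X probe A_33_P3236868. These were the 4 probes with replicate 1 highest and replicate 2 lowest in both groups, where 3.46% of all probes tested had that order. Part of this contrast rested on the array that stood apart. Without it, CYGB+ replicate 1 was the highest CYGB+ replicate for MT1A (15.99), MT1E (15.23) and MT1H probe A_33_P3315314 (15.70), as in NCE. For MTF1 (8.19) it was then the lowest. Tested as differences between replicate numbers over both groups by limma's F-test, 5 of the 11 probes (MT1F, MT1M, both MT1X probes and SLC30A1) passed the unadjusted threshold of 0.05, against 9.3% of all probes. None of these passed the adjustment, in which 0 of the 21505 probes were called and the smallest adjusted p was 0.531. These probes share a gene cluster and may share target sequence, so their number is not a number of independent observations.

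**Figure D3:**
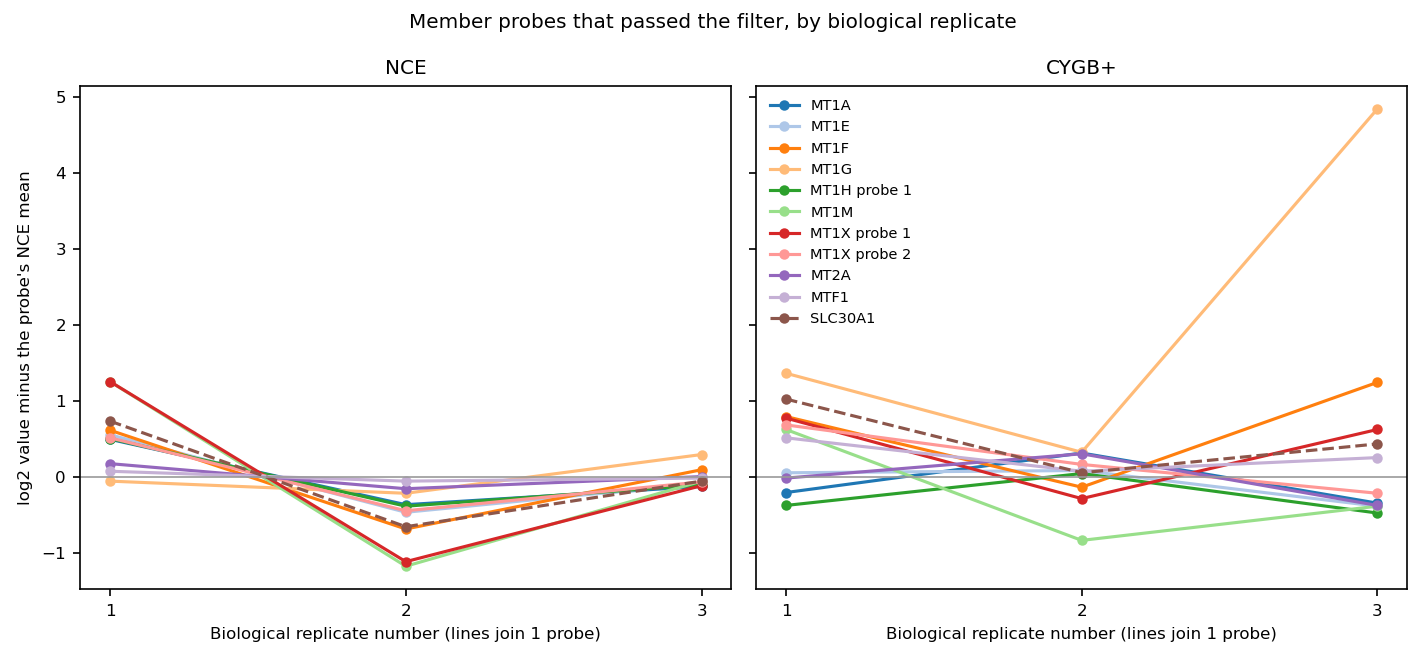
Log2 value of each member probe that passed the filter, minus its own NCE mean (vertical axis), in the 3 biological replicates (horizontal axis) of NCE (left) and CYGB+ (right); lines join the values of 1 probe and imply no order. In NCE the lowest point of every line is replicate 2, with MT1M spanning 2.43 and MT1X probe 1 2.37 log2 units, while in CYGB+ MT1G stands highest in replicate 3, where it read 11.09 before the NCE mean of 6.25 was taken off, and SLC30A1 (dashed) keeps its NCE order.

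Because slide and group nearly coincided, the members were also compared on the shared slide alone. There 1 NCE sample stood against 3 CYGB+ replicates and was assumed to vary as they did. The lone NCE array belonged to replicate 1, the NCE replicate with the highest value for most members. Within that slide 0 of the 11 probes were called, as were 0.0233% of all probes, so that the count says little about the members. The 10 probes other than MT1G were lower in CYGB+, as were 48.3% of all probes tested. The widest differences below 0 were -1.55 for MT1M (95% confidence interval -2.85 to -0.26, limma adjusted p = 0.406) and -1.02 for MT1X probe A_33_P3236868 (-2.05 to 0.02, adjusted p = 0.481). When replicate 1 was set against replicate 1 on that slide, 5 probes were higher and 6 lower in CYGB+, values without a test since each group then had 1 RNA sample.

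**Figure D4:**
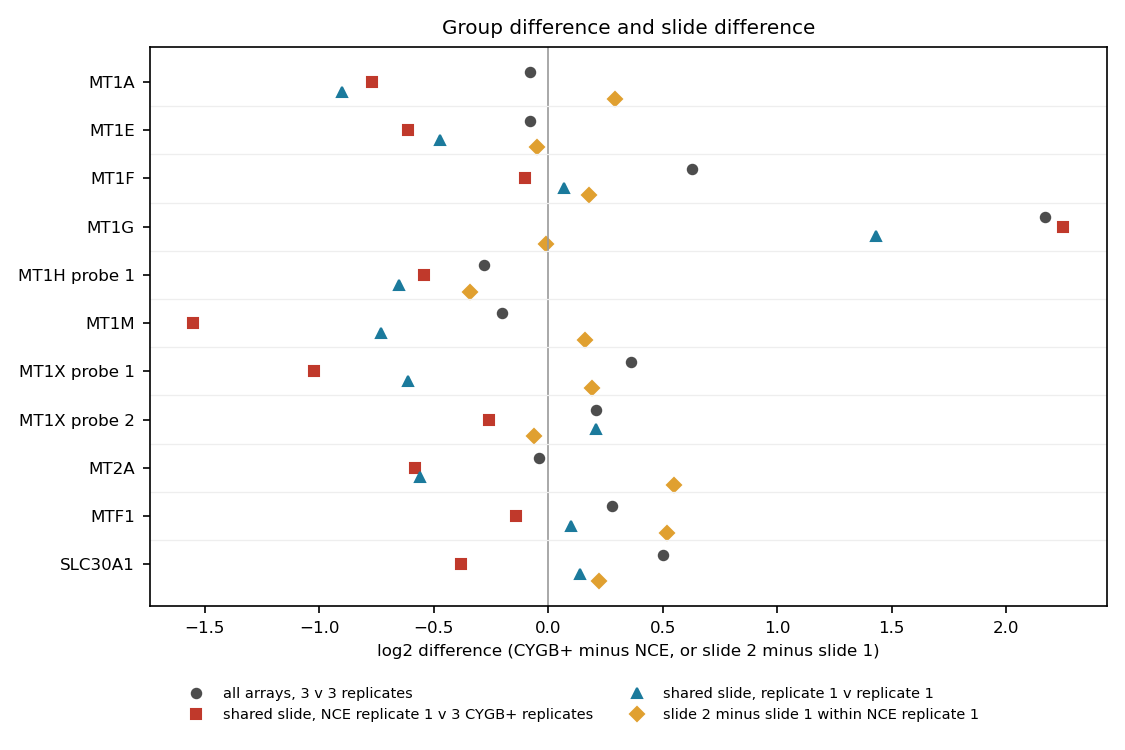
Log2 differences (horizontal axis) of the 11 member probes: CYGB+ minus NCE over all arrays (grey circles), CYGB+ minus the NCE replicate 1 array on the shared slide (red squares), CYGB+ replicate 1 minus that array (blue triangles), and slide 2 minus slide 1 within NCE replicate 1 (yellow diamonds). On the shared slide 10 of 11 red squares lie below 0, and the slide difference alone reaches 0.55 for MT2A and 0.52 for MTF1.

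The metallothioneins outside the members gave no call either. Of 6 such genes on the array, MT1L (a difference of 0.07, limma adjusted p = 0.904), MT1B (-0.18, adjusted p = 0.663) and MT3 (0.40, adjusted p = 0.305), the isoform best known from brain, passed the filter. MT4, MT1IP and MT1DP did not. MT1L read 15.80, 14.85 and 15.08 in NCE and 15.52, 15.59 and 14.82 in CYGB+, and MT1B 15.72, 14.98 and 15.08 in NCE and 14.92, 15.47 and 14.84 in CYGB+. Both were thus highest in replicate 1 and lowest in replicate 2 of NCE, as most members were. That order was not limited to the member probes, but the MT1L and MT1B probes may also bind member transcripts. The remaining zinc exporters of the ZnT family had 0 of 8 probes called. Of the 12 probes of ZIP importers kept, which bring zinc into the cytosol, 1 fell, that of SLC39A8 (ZIP8), from 9.88, 10.10 and 10.15 in NCE to 8.83, 9.31 and 9.52 in CYGB+ (a log2 difference of -0.82, limma adjusted p = 0.0322, slide difference within NCE replicate 1 -0.27). Copper transporters and chaperones had 0 of 11 probes called.

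Genes of the metal and oxidant stress response and of the glucocorticoid response, both of which are known inputs to metallothionein genes, held the other calls of the pathway lists, against 5.39% of all probes called higher. Of 12 metal and oxidant stress probes, 3 rose and 0 fell, with a median log2 difference of 0.54 over the list. SQSTM1, an autophagy receptor, rose by 1.39 (limma adjusted p = 0.011), TXNRD1, a thioredoxin reductase, by 1.04 (adjusted p = 0.00536) and HMOX1, the inducible haem oxygenase, by 1.00 (adjusted p = 0.00506). HMOX1 is itself induced by metals, and it read 7.30, 7.45 and 7.61 in NCE and 8.38, 8.51 and 8.47 in CYGB+, with tight replicates where the metallothioneins were spread. Of 8 glucocorticoid-responsive probes, 2 rose, those of the phosphatase gene DUSP1 (0.88, adjusted p = 0.00954) and of the receptor gene NR3C1 (0.60, adjusted p = 0.0232), whose slide difference within NCE replicate 1 was 0.40. A second NR3C1 probe was not called (0.28, limma adjusted p = 0.232). The remaining probes of that list were not called either, with FKBP5 at -0.16, PER1 at -0.10, SGK1 at -0.19, TSC22D3 at 0.12 and ZBTB16 at 0.17. With the replicate block the calls in these pathway lists went from 6 to 11, adding SLC39A14, CCS, SLC7A11, GCLC and GCLM, named here after their values were seen; the GCLM difference of -0.89 was smaller than its slide difference of -1.42 within NCE replicate 1. Of the cell type markers, COL1A2 (-1.33, adjusted p = 0.00308) and KRT6A (-0.51, adjusted p = 0.027) fell in CYGB+, and their part in any member's value was not tested.

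The genes whose replicate pattern lay nearest to that of MT2A, each replicate taken relative to the NCE mean, were USP43, PPL, ORAI1, EIF4EBP1 and CALHM6, with root mean square differences of 0.0406 to 0.0874 log2 units over the 6 replicates. The nearest member to MT2A was MT1A, at 0.18 and rank 1025 of the probes tested. Around SLC30A1, a comparison chosen after its values were seen, the nearest gene was YJEFN3 at 0.078, and the nearest members were the MT1X probes at 0.323 and 0.341 (ranks 79 and 129) and MT1F at 0.36 (rank 204). The exporter values were thus closer in rank to MT1X and MT1F than to MT2A, which stood at rank 10362. These differences were not scaled for how widely a probe varied. MT1M, which shared the replicate order of SLC30A1 in both groups, stood at rank 8431.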

How the data were processed

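Total RNA of 3 NCE and 3 CYGB+ biological replicates was measured on 15 Agilent SurePrint G3 arrays. Per the file headers, the deposited scanner files were made with Feature Extraction 10.7.3.1 under a 2-colour protocol and hold spot intensity that is not scaled between arrays, beside a processed signal that the software background-subtracted and dye-normalised. The labels describe Cy3, the green channel, for every sample, whereas the study's methods place control RNA in the other dye. The green channel was used here for both groups, and what the red channel holds is not settled. The authors' deposited value table holds 15040 rows on what the values show to be a natural log scale (slope 0.693 against log2 intensity), centred near the CYGB+ median; it held 7 member probes and served as an alternative.

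Green median intensity and background were corrected by normexp (offset 50), set to log2 and quantile normalised over the arrays after removal of control spots. Spots of a probe and array repeats of a replicate were averaged. Probes were kept where they were well above background in a majority of the arrays of a replicate in at least 3 of the 6 replicates (21505 of 42405). Groups were compared with limma 3.58.1 in R 4.3.3, with Benjamini-Hochberg adjustment over all probes kept and a threshold of 0.05, on moderated variances without other covariates. This was tested on simulated data with known changes and independent replicates, without a slide effect or a replicate pairing. The number of arrays, and of RNA samples (3 in each group), limits the precision. Figures were drawn with matplotlib 3.10.9.

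Replicate numbers, taken from the labels, were also used as a block, because deviations from the group means correlated within each same-numbered pair (0.21, 0.23 and 0.31); 2 of the 6 differently numbered pairs also correlated above 0.2 (0.21 and 0.29). Genes named beyond the members were the CYGB transgene, up to 3 genes with the largest called difference of each pathway list, and the 5 genes nearest to MT2A; marker genes, further metallothioneins, genes called with the replicate block alone and those near SLC30A1 were named outside this rule, after their values were seen. The members and lists were chosen with earlier results of these data known. Alternatives were the processed signal, 75th percentile scaling, no filter, an intensity trend, the methods' t-test, array repeats or slide as blocks, the deposited table, and each replicate left out; those on the array that stood apart, on likeness to SLC30A1, on the test of replicate numbers and on combinations with the replicate block were chosen after seeing the data. Symbols and promoter windows came from RefSeq (GRCh38.p14).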

Additional observations from a re-analysis of the deposited data

Results flagged for a closer look

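The red channel, which the labels do not describe and which no comparison above uses, carried signal for the members: 10 of the 12 member probes were well above background in red on all 15 arrays, the same number as in green. MT1G in red read 13.95 and 9.45 on the arrays of CYGB+ replicate 3 and 12.94 on array 1 of NCE replicate 3, the array on which MT1G read 7.19 in green against 6.21 on both other arrays of the same RNA.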

How the results depend on the processing

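Of 296 comparisons of a member or CYGB difference with its value under another setting, 233 kept direction and side of the threshold, 51 changed sign, all without passing the test in either setting, and 12 passed it. With the replicate block the members called went from 0 to 1 (SLC30A1); the block on the full data changed no other member's call and moved the pathway list calls from 6 to 11. Array repeats as a random block called 1 of 11 member probes (MT1G) and the block with 75th percentile scaling 3 (MT1F, MT1G and SLC30A1). The block on the processed signal called 1 (MT1G) and the block without the array that stood apart 2 (MT1G and SLC30A1). Of all 21505 probes, these fits called, in that order, 2352 higher and 2442 lower, 1902 and 1841, 1334 and 1418, and 3070 and 3213. The MT1G probe passed the filter through its high group, so its calls in these fits are a description only. Within the shared slide, 75th percentile scaling gave differences of -1.48 for MT1M and 2.42 for MT1G. That fit had 1 NCE sample and the same variance estimate for every probe, so its calls carry no weight. The MT1G difference was 4.46 on the processed signal after quantile normalisation and 4.37 after 75th percentile scaling. Leaving out 1 replicate gave 0 members, 2 to 9 pathway probes, 223 to 1201 probes higher and 277 to 1185 lower, where the full comparison had 1159 and 1222, and leaving out a pair under the block gave 0 to 4 members, 2 to 16 pathway probes, 146, 166 or 2453 probes higher and 168, 186 or 2632 lower. The pathway calls were 2 with the methods' t-test, 12 with array repeats as a random block, 3 with slide as a block, 0 within the shared slide, 12 without the array that stood apart, 15 with the block and 75th percentile scaling and 18 with the block without that array. In the same order the probes called higher and lower were 351 and 326, 2352 and 2442, 317 and 444, 3 and 2, 1979 and 2151, 1902 and 1841, and 3070 and 3213; the deposited table gave 764 and 680, and 746 were lower with 75th percentile scaling and 759 with the same scaling of the processed signal.

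Signs turned as follows. The processed signal gave 0.13 for MT2A, also with the block, and after 75th percentile scaling 0.08 for CYGB, 0.10 for MT1A, 0.16 for MT1E and 0.23 for MT2A. Scaling to the 75th percentile gave 0.05 for MT1E with or without the block. Slide as a block gave -0.59 and -0.08 for the MT1X probes, -0.15 for MTF1 and -0.14 for SLC30A1, and the shared slide alone -0.10 for MT1F, -1.02 and -0.26 for MT1X, -0.14 for MTF1 and -0.38 for SLC30A1. Without the NCE array of the shared slide MT2A was 0.03. The deposited table gave 0.05 for CYGB, 0.03 for MT1A, 0.11 for MT1E and 0.04 for MT2A. Without the array that stood apart, with or without the block, MT1A was 0.16, MT1E 0.03, MT1H 0.07 and MT2A 0.03. Leaving out 1 replicate gave -0.33 to 0.20 for CYGB, -0.28 to 0.17 for MT1A, -0.32 to 0.19 for MT1E, -0.80 to 0.42 for MT1M, -0.20 to 0.99 and -0.02 to 0.47 for the MT1X probes and -0.20 to 0.14 for MT2A. Leaving out a pair under the block gave -0.25 to 0.14 for CYGB, -0.46 to 0.23 for MT1A, -0.40 to 0.12 for MT1E, -0.63 to 0.03 for MT1H, -0.48 to 0.01 for MT1M and -0.29 to 0.14 for MT2A. The cause of these sign changes was not tested, and the shared slide alone has fewer samples. Each group had 3 RNA samples, and MT1G and the dim MT1H probe were at background on most NCE arrays.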
